A study of Mus musculus with 6 samples.

Results

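Cardiac muscle genes were followed in the lungs of newborn mice. The set was chosen by name, as every row of the lung array table whose gene symbol was Myh6, Actc1, Tnnt2, Tnni3, Myl7, Myl4, Myl2, Myl3, Sln or Csrp3. Of these 10 genes, 9 were matched by 13 probes, out of 25697 probes for 18138 gene symbols in all. Tnnt2 was not analysed here, since its name matched no row of the table. Total RNA came from the lungs of male mice at postnatal day 6, of a strain that the labels give as FVB and the study's methods as FVB/N, with 3 hSRY-OFF and 3 hSRY-ON mice and 1 Illumina BeadChip array per mouse. Both groups are named for Signalox-hSRY, a single-copy transgene at the H11 locus that carries the human sex-determining gene SRY behind the broadly active CAG promoter. In hSRY-OFF mice the transgene was not recombined, so that the red fluorescent protein gene DsRed2 was expressed in place of hSRY. In hSRY-ON mice, Cre recombinase passed on in the egg of a Ddx4-Cre mother had removed DsRed2 in the early embryo, and hSRY and EGFP were expressed from the same promoter. Animals with Ddx4-Cre in their own genome were not used for the hSRY-ON arrays. The study also uses the word control for littermates without the responder transgene, so whether the hSRY-OFF mice carried it rests on their label.

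Heart muscle contracts when thick filaments of myosin pull on thin filaments of actin. Each myosin head carries an essential and a regulatory light chain, and calcium opens the thin filament through the troponin complex. The light chains exist in forms used mainly by the atria (Myl4 and Myl7) or mainly by the ventricles (Myl2 and Myl3), and the ventricular forms also serve slow skeletal muscle. In the mouse, a sleeve of atrial type heart muscle runs along the pulmonary veins into the lung, so whole lung RNA holds cardiac transcripts. In whole tissue, fewer cells of a type and less RNA per cell cannot be told apart.

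In brief, the light chains did not move as a block. In hSRY-ON lungs the ventricular essential light chain Myl3 was higher, and the ventricular regulatory light chain Myl2 and the atrial essential light chain Myl4 were lower. Sln and 1 of 3 Csrp3 probes were lower by a smaller amount. Myl7, Myh6, Actc1 and Tnni3 did not pass the test.

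The promoters of 3 of the members that hold a CArG box or the motif AACAAT are shown, with the motifs described after them. Actc1 also holds a CArG box, and its window is not shown. Of these genes, Myl3 was called higher, and Myl7 and Actc1 were not called. Of the Csrp3 probes only ILMN_2789650 was called lower. The windows of Myl2 and Myl4, both called lower, held neither motif. Those of Myh6 and Tnni3, not called, held neither as well. All windows come from RefSeq on build GRCm38.p6 and run from 250 bases before to 50 bases after an annotated start, 5′ to 3′ on the strand of the gene. Capitals mark the motifs found. An entry was found for 9 of the 10 genes, with 12 entries in all, and none for Sln. The Myl3 window is chr9:110763428-110763727 on the plus strand, the Myl7 window is chr11:5898733-5899032 on the minus strand, and the Csrp3 window is chr7:48848002-48848301 on the minus strand.
Myl3: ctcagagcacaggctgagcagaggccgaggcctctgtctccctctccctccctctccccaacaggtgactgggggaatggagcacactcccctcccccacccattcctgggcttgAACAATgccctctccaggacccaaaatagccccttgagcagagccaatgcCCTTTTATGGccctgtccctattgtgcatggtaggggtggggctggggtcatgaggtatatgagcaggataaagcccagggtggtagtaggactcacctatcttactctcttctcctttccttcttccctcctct
Myl7: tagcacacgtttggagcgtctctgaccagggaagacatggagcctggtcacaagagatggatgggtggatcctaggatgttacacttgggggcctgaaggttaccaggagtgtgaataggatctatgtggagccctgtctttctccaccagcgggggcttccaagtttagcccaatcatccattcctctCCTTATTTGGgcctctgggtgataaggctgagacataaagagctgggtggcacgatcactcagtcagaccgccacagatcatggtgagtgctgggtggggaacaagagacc
Csrp3: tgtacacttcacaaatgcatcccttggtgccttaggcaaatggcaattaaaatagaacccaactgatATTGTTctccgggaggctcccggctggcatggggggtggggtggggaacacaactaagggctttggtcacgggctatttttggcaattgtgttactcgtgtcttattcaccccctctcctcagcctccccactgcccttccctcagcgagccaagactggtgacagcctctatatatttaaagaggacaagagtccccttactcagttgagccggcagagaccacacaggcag

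Both strands of every window were searched for 5 motifs, with overlapping matches allowed. The CArG box, the site of serum response factor in muscle gene promoters, lay 85 bases before the start in Myl3, the gene that rose, and 61 bases before it in Myl7. It also lay 47 bases before the start in Actc1, and 1.63% of the 32851 promoters in the RefSeq table held it. AACAAT, a sequence bound by SOX family factors including SRY, lay 135 bases before the start in Myl3 and, on the opposite strand, 183 bases before it in Csrp3. It was thus found in 2 of the 9 member genes with an entry, and in 10.7% of all promoters. TATAAA was found in a window of 3 of the 9 member genes with an entry (Actc1, Myh6 and Myl2), and in 13.6% of all promoters. AGATAA, which GATA factors bind, was found in 2 of the 9 (Myl2 and Tnnt2), and in 11.2% of all promoters. The member counts are of genes, some with 2 windows, while the shares are of single windows. The MEF2 box, the site of a muscle factor family, was found in no member window and in 0.557% of all promoters. These matches are a description of letters in the windows.

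An Illumina array reports, for each probe, the mean brightness of its beads and a detection p-value, the share of negative control probes that were brighter. A probe with a value under 0.05 was called detected. This held for 13191 to 14134 probes of an array, and the median intensity of an array lay between 177.1 and 204.0. Levels below are log2 of the background-corrected and normalized intensity, and they compare arrays but not probes. A change is the hSRY-ON mean minus the hSRY-OFF mean on that scale, and a call is an adjusted p under 0.05 from a fit over all 13841 probes detected on at least 3 of the 6 arrays. Of the 13 member probes, 9 were detected on all 6 arrays, 12 were tested and 1, the Myh6 probe ILMN_2640008, was detected on no array. An exact permutation test of 3 arrays against 3 cannot give a two-sided p below 0.1. Precision is limited by the number of arrays.

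Of the 12 tested member probes, 1 was higher, 4 were lower and 7 were not called. Over all tested probes, 13.6% were called higher, 13.3% lower and 26.9% in either direction, so a call is a common outcome on these arrays. The groups did not overlap for 6 member probes, 1 of them higher and 5 lower in hSRY-ON, beside 22.4% and 24.1% of all tested probes. The median change over all 13 member probes was -0.27, against -0.01 over all probes of the array. It was -0.08 with no background correction and -0.13 with an offset of 50. Without hSRY-ON replicate 1 this median was -0.61 and 7 member probes were called lower, and without hSRY-ON replicate 2 the median was -0.06 and 2 were called lower. Leaving out any of the 4 other arrays also gave 2 member probes called lower.

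**Figure D1:**
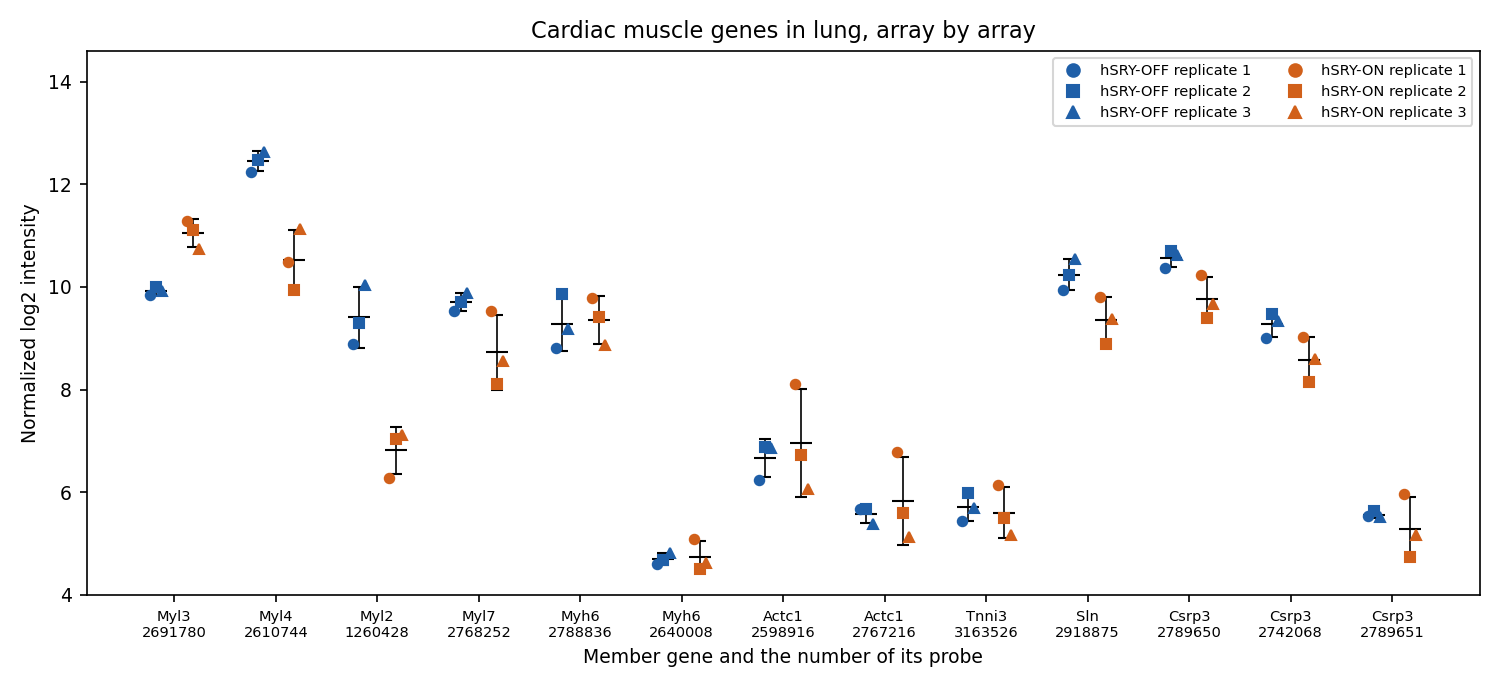
Normalized log2 intensity (y axis) of each of the 13 member probes (x axis, gene and ILMN probe number) on each array, with hSRY-OFF in blue and hSRY-ON in orange and a symbol for each replicate number. Horizontal ticks and bars give the group mean and SD of 3 arrays. The hSRY-ON points of Myl3 lie above the hSRY-OFF points, those of Myl4 and Myl2 lie well below them, and those of Myh6 and Actc1 overlap them.

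Among the essential light chains, which brace the lever arm of the myosin head, the ventricular and the atrial form moved in opposite directions. Myl3 (ILMN_2691780) stood at 9.84, 10 and 9.92 in hSRY-OFF replicates 1 to 3 and at 11.28, 11.11 and 10.74 in hSRY-ON replicates 1 to 3. The groups did not overlap, and the hSRY-OFF arrays lay within a narrow band (SD 0.0787, n = 3) beside hSRY-ON (SD 0.274, n = 3). Myl3 rose by 1.12 on the log2 scale (SE 0.16, 95% interval 0.74 to 1.5, adjusted p = 0.00437). The deposited intensities, before any correction, were 1048, 1082 and 1292 in hSRY-OFF and 2377, 2342 and 1978 in hSRY-ON, so the order of the groups was already there. Myl4 (ILMN_2610744), which the embryonic ventricle and embryonic skeletal muscle also use, stood at 12.24, 12.48 and 12.64 in hSRY-OFF. In hSRY-ON it stood at 10.49, 9.94 and 11.12, with every array below every hSRY-OFF array and replicate 2 the lowest. Myl4 fell by 1.94 on the log2 scale (SE 0.29, 95% interval -2.62 to -1.26, adjusted p = 0.00501). Its deposited intensities were 4838, 5264 and 7412 in hSRY-OFF and 1414, 1087 and 2515 in hSRY-ON.

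Among the regulatory light chains, which are phosphorylated to tune the force of contraction, the ventricular form fell. Its change was the largest of any member except with no background correction, where Myl2 stood at -1.70 and Myl4 at -1.84. Myl2 (ILMN_1260428) stood at 8.89, 9.29 and 10.04 in hSRY-OFF and at 6.29, 7.04 and 7.12 in hSRY-ON. No value of one group reached the other, with hSRY-OFF replicate 3 the highest and hSRY-ON replicate 1 the lowest. Myl2 fell by 2.59 on the log2 scale (SE 0.34, 95% interval -3.39 to -1.79, adjusted p = 0.00339), the 10th largest fall of the 13841 tested probes. Its deposited intensities were 618, 718 and 1386 in hSRY-OFF and 211, 250 and 284 in hSRY-ON. The high array, hSRY-OFF replicate 3, also held the highest hSRY-OFF values of several skeletal muscle genes. The fast skeletal light chain Myl1 stood at 7.95 there, beside 5.54 and 5.69, and Mylpf at 7.38, beside 6.09 and 6.04. Without that array Myl2 still changed by -2.27 (adjusted p = 0.0115).

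The atrial regulatory light chain Myl7 (ILMN_2768252) stood at 9.54, 9.71 and 9.89 in hSRY-OFF and at 9.53, 8.10 and 8.55 in hSRY-ON. Replicate 1 of hSRY-ON lay next to the lowest hSRY-OFF array, and the other two lay about 1 unit or more below it. The change was -0.99 (SE 0.34, 95% interval -1.79 to -0.18, adjusted p = 0.0719), which was not called. Without hSRY-ON replicate 1 it was -1.39 (adjusted p = 0.0047), and without hSRY-ON replicate 2 it was -0.66 (adjusted p = 0.17).

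Because each array measured all light chains at the same time, their changes can be set against each other within arrays. The Myl3 level minus the Myl2 level was 0.96, 0.71 and -0.12 on the hSRY-OFF arrays and 4.99, 4.07 and 3.62 on the hSRY-ON arrays. The change of Myl3 was thus 3.71 log2 units above that of Myl2, although both belong to the ventricular myosin head. It was 3.06 units above that of Myl4 and 2.11 units above that of Myl7. For Myl2 against Myl7 the difference of changes was -1.60. In each of these 4 pairs, chosen with the values known, the groups did not overlap and the exact permutation p was 0.1, the smallest possible. For the pairs with Myl3 this outcome was fixed beforehand. On its own Myl3 was higher, and Myl2, Myl4 and Myl7 were each lower, with no overlap of the groups. The p of those pairs thus adds nothing to the values of the single genes.

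**Figure D2:**
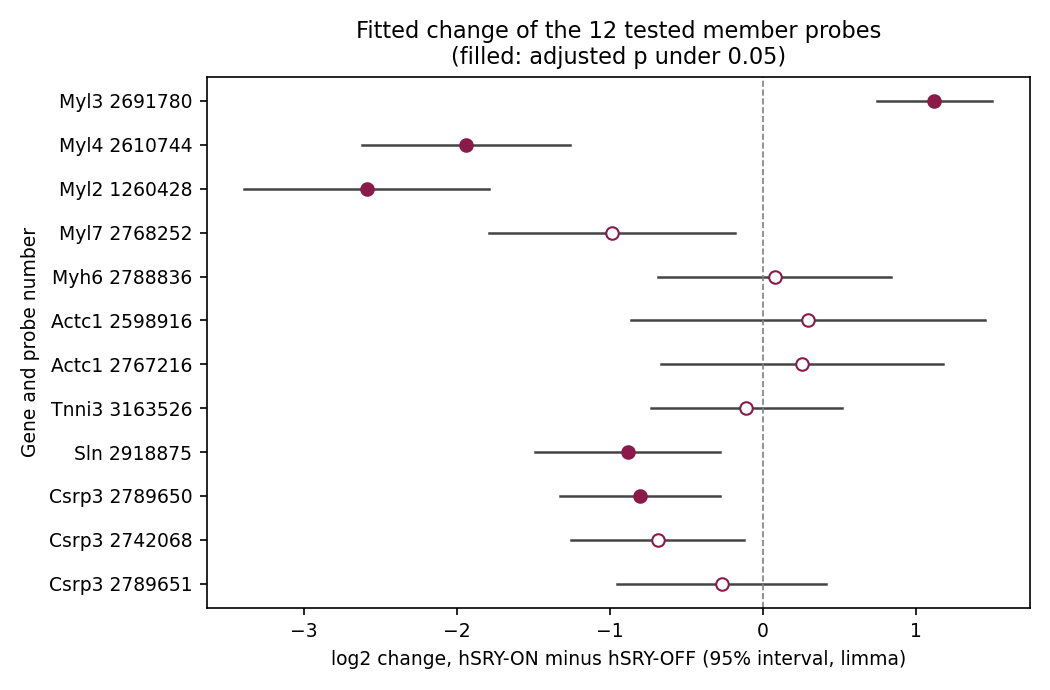
Fitted log2 change, hSRY-ON minus hSRY-OFF (x axis, points), with its 95% interval from limma (bars) for the 12 tested member probes (y axis), filled where the adjusted p was under 0.05. Myl3 lies at 1.12, Myl4 at -1.94 and Myl2 at -2.59, and the intervals of Myh6, Actc1, Tnni3 and ILMN_2789651 of Csrp3 cross 0.

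Myh6 encodes the alpha myosin heavy chain, the motor of atrial and adult mouse ventricular muscle. Its detected probe (ILMN_2788836) stood at 8.80, 9.86 and 9.17 in hSRY-OFF and at 9.78, 9.42 and 8.86 in hSRY-ON. The groups overlapped over almost their whole range. The change was 0.08 (SE 0.32, 95% interval -0.68 to 0.84, adjusted p = 0.873), and it turned to -0.16 when hSRY-OFF replicate 1 was left out and to -0.13 when hSRY-ON replicate 1 was. The interval leaves room for a change of more than 0.5 in either direction.

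The thin filament members were dim. Actc1, the cardiac alpha actin, has near-identical relatives in skeletal and smooth muscle, and the probe sequences were not used here, so how far its probes tell them apart is uncertain. ILMN_2598916 of Actc1 stood at 6.24, 6.89 and 6.86 in hSRY-OFF and at 8.10, 6.72 and 6.05 in hSRY-ON. Replicate 1 of hSRY-ON was the highest of all 6 arrays and replicate 3 the lowest. The change was 0.30 (95% interval -0.86 to 1.45, adjusted p = 0.682). The other Actc1 probe, ILMN_2767216, was detected on 2 arrays of each group, with a change of 0.26 (adjusted p = 0.656) and the same array on top, at 6.78. Without hSRY-ON replicate 1 the changes were -0.28 and -0.22. Tnni3, the cardiac inhibitory troponin, which holds the thin filament off at low calcium, stood at 5.45, 5.99 and 5.69 in hSRY-OFF and at 6.14, 5.50 and 5.16 in hSRY-ON. Its signal passed detection on 3 arrays of hSRY-OFF and 2 of hSRY-ON, close to the floor of the array. Its change was -0.11 (95% interval -0.73 to 0.52, adjusted p = 0.787); it was 0.03 when hSRY-OFF replicate 2 was left out and 0.11 when hSRY-ON replicate 3 was.

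Sln encodes sarcolipin, a small membrane protein that restrains the calcium pump of the sarcoplasmic reticulum and is known from the atria. It stood at 9.95, 10.23 and 10.54 in hSRY-OFF and at 9.80, 8.89 and 9.37 in hSRY-ON. All hSRY-ON arrays lay below all hSRY-OFF arrays, replicate 1 by a narrow margin. Sln fell by 0.88 on the log2 scale (SE 0.26, 95% interval -1.49 to -0.28, adjusted p = 0.0425). The call was lost without any 1 array other than hSRY-ON replicate 1, with adjusted p from 0.0676 to 0.129 and changes from -1.03 to -0.64.

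Csrp3 encodes the muscle LIM protein of the Z-disc, which anchors thin filaments, and had 3 probes. ILMN_2789650 stood at 10.37, 10.70 and 10.61 in hSRY-OFF and at 10.22, 9.39 and 9.66 in hSRY-ON. The groups did not overlap, with hSRY-ON replicate 1 again close to the hSRY-OFF arrays. It fell by 0.80 on the log2 scale (SE 0.22, 95% interval -1.33 to -0.28, adjusted p = 0.0374). This call too was lost without any 1 array other than hSRY-ON replicate 1 (adjusted p from 0.0759 to 0.124). ILMN_2742068 stood at 9.0, 9.46 and 9.34 in hSRY-OFF and at 9.02, 8.14 and 8.59 in hSRY-ON. Its change of -0.69 was not called (adjusted p = 0.0735), and was -0.91 without hSRY-ON replicate 1 (adjusted p = 0.0195). ILMN_2789651, detected on 3 hSRY-OFF arrays and 1 hSRY-ON array, changed by -0.27 (adjusted p = 0.52). Without hSRY-ON replicate 1 its change was -0.61 (adjusted p = 0.0314), and without hSRY-ON replicate 2 it was 0.01.

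The hSRY-ON arrays were not alike for these genes. Replicate 1 was the highest hSRY-ON array for 10 of the 12 tested member probes, and the exceptions were Myl4 and Myl2. Over all tested probes that share was 31.7%. Replicate 2 was the lowest hSRY-ON array for 6 of the 12, beside 30.5% of all tested probes. The mean of the 12 probes, each centred on its mean over the arrays, was 0.04, 0.40 and 0.38 in hSRY-OFF and 0.19, -0.54 and -0.46 in hSRY-ON. The array of hSRY-ON replicate 1 thus lay within the hSRY-OFF range of this mean. The SD was larger in hSRY-ON for 10 of the 12 probes, and 73.6% of all tested probes had a larger SD there.

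**Figure D3:**
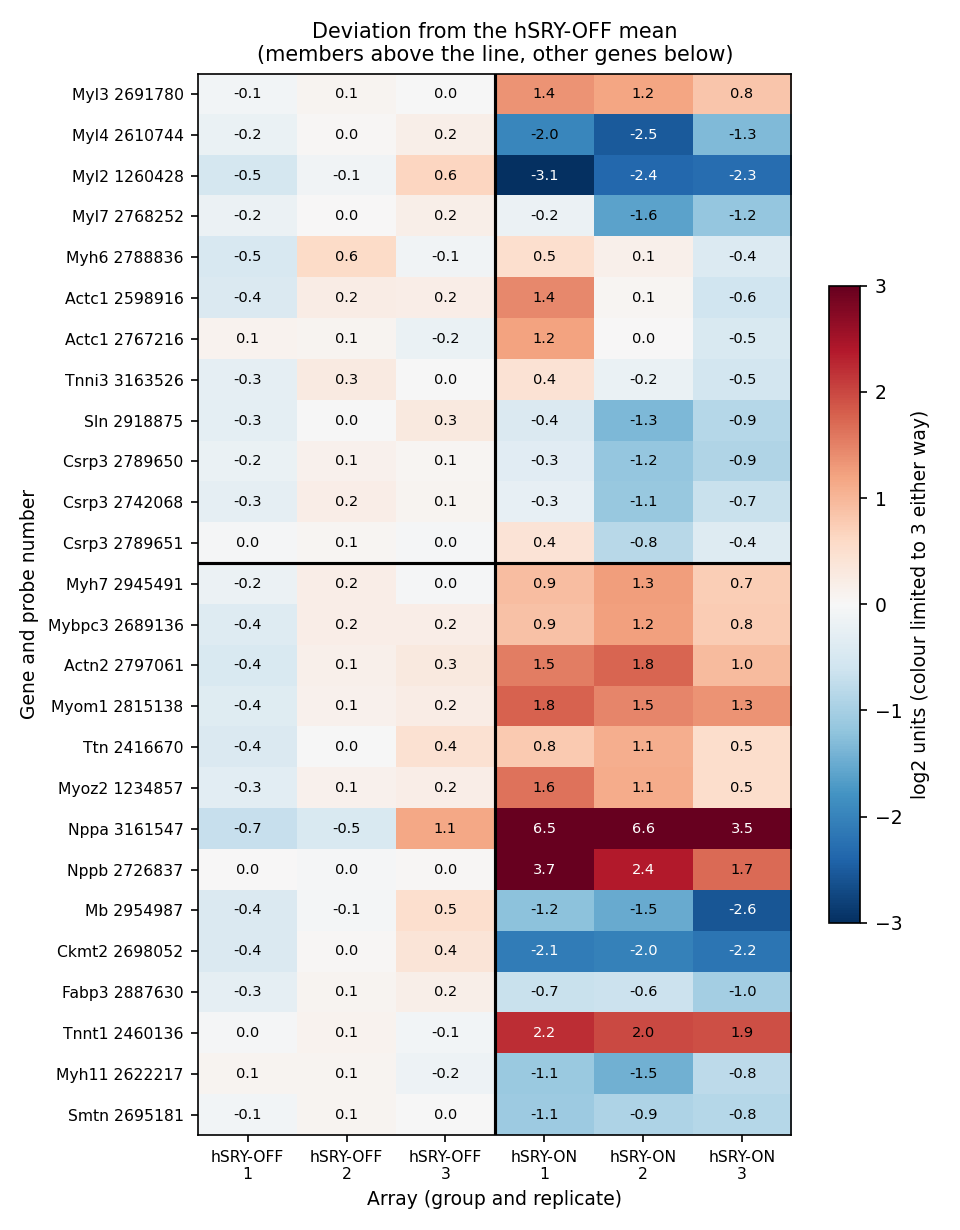
Each cell gives the normalized log2 level of a probe (rows, gene and ILMN probe number) on an array (columns, group and replicate) minus the hSRY-OFF mean of that probe, with red for higher and blue for lower and colours limited to 3 log2 units. Above the line are the 12 tested member probes and below it other muscle genes. Myl2 is 3.1 units below the hSRY-OFF mean on hSRY-ON replicate 1, and the probes of Nppb on hSRY-OFF arrays and of Ckmt2 on hSRY-ON arrays were not detected.

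Genes other than the members were searched for profiles over the 6 arrays like that member mean. Only tested probes ranging over at least 2 log2 units were used, and the 8 genes with the highest correlation are named. They were Ddx21 (Pearson r = 0.984), Klf4 (0.968), Rasgrp3 (0.962), Sox17 (0.954), Serf1 (0.951), Meox2 (0.950), Gyg (0.942) and Thbd (0.937). Each r is over 6 arrays that share their group structure, and it serves as a description. Sox17, a factor of endothelium, stood at 7.24, 7.61 and 7.19 in hSRY-OFF and at 7.33, 4.87 and 4.80 in hSRY-ON. It has the shape of the member mean, though not of Myl3, Myl2 or Myl4, with hSRY-ON replicate 1 among the hSRY-OFF arrays and the other two below. The change of Sox17 was -1.68 (adjusted p = 0.0922). None of the 8 is a muscle structure gene, but the members and all probes of smaller range had been left out beforehand.

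A list of 60 further cardiac genes gives the setting. Of these, 58 were matched by 83 probes, of which 26 were detected on no array, and 40 genes could be tested. By the brightest tested probe of each gene, 8 were higher, 7 were lower and 25 were not called, beside 14.9% of all 10292 tested genes called higher, 12.9% called lower and 27.9% called in either direction. Among the called genes, Nppb passed the filter only through hSRY-ON arrays and Ckmt2 only through hSRY-OFF arrays. With no filter the counts were also 8 higher and 7 lower. The median change over all 83 probes was 0.03. The count higher was 5 without hSRY-ON replicate 2, and the count lower was 3 without hSRY-OFF replicate 2 or without hSRY-OFF replicate 3.

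Sarcomere genes of the list held calls in both directions, and its ventricular genes held 1 call, higher. Of 2 tested ventricular genes other than the members, Myh7, the slow beta myosin heavy chain, rose. It stood at 5.98, 6.35 and 6.11 in hSRY-OFF and at 7.08, 7.41 and 6.89 in hSRY-ON, a change of 0.98 (SE 0.17, adjusted p = 0.00865). The Notch-responsive factor Hey2 had a change of 0.53 (adjusted p = 0.09). Of 14 tested sarcomere genes, 4 were higher, 2 lower and 8 not called. Those higher were the M-band protein Myom1, the Z-disc actin crosslinker Actn2, the Z-disc protein Myoz2 and the cardiac myosin-binding protein Mybpc3. Myom1 had the largest of these changes, at 1.53 (adjusted p = 0.00307), and stood at 6.77, 7.27 and 7.35 in hSRY-OFF and at 8.91, 8.60 and 8.48 in hSRY-ON. The groups did not overlap. Actn2 changed by 1.41 (adjusted p = 0.0107), Myoz2 by 1.09 (adjusted p = 0.0315) and Mybpc3 by 0.96 (adjusted p = 0.0172). Myoz2 lost its call without each hSRY-OFF array or hSRY-ON replicate 2 (adjusted p up to 0.109), and Mybpc3 without hSRY-OFF replicate 1 or hSRY-ON replicate 2 (adjusted p up to 0.0519). For titin, Ttn, 1 of 2 probes was called (0.89, adjusted p = 0.0385) and the brighter one was not (0.81, adjusted p = 0.0514). The lower genes were tropomyosin Tpm1 (-0.47, adjusted p = 0.0186) and desmin, Des (-0.72, adjusted p = 0.00633), both of which smooth muscle also expresses. Without each hSRY-OFF array in turn, Tpm1 had an adjusted p of 0.0674 to 0.0786, and with median scaling its change was -0.30 (adjusted p = 0.143). Tcap, the titin cap, had the lowest change of these genes, -0.75, and was not called (adjusted p = 0.106). The slow and cardiac calcium-binding troponin Tnnc1 changed by -0.51 (adjusted p = 0.073).

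**Figure D4:**
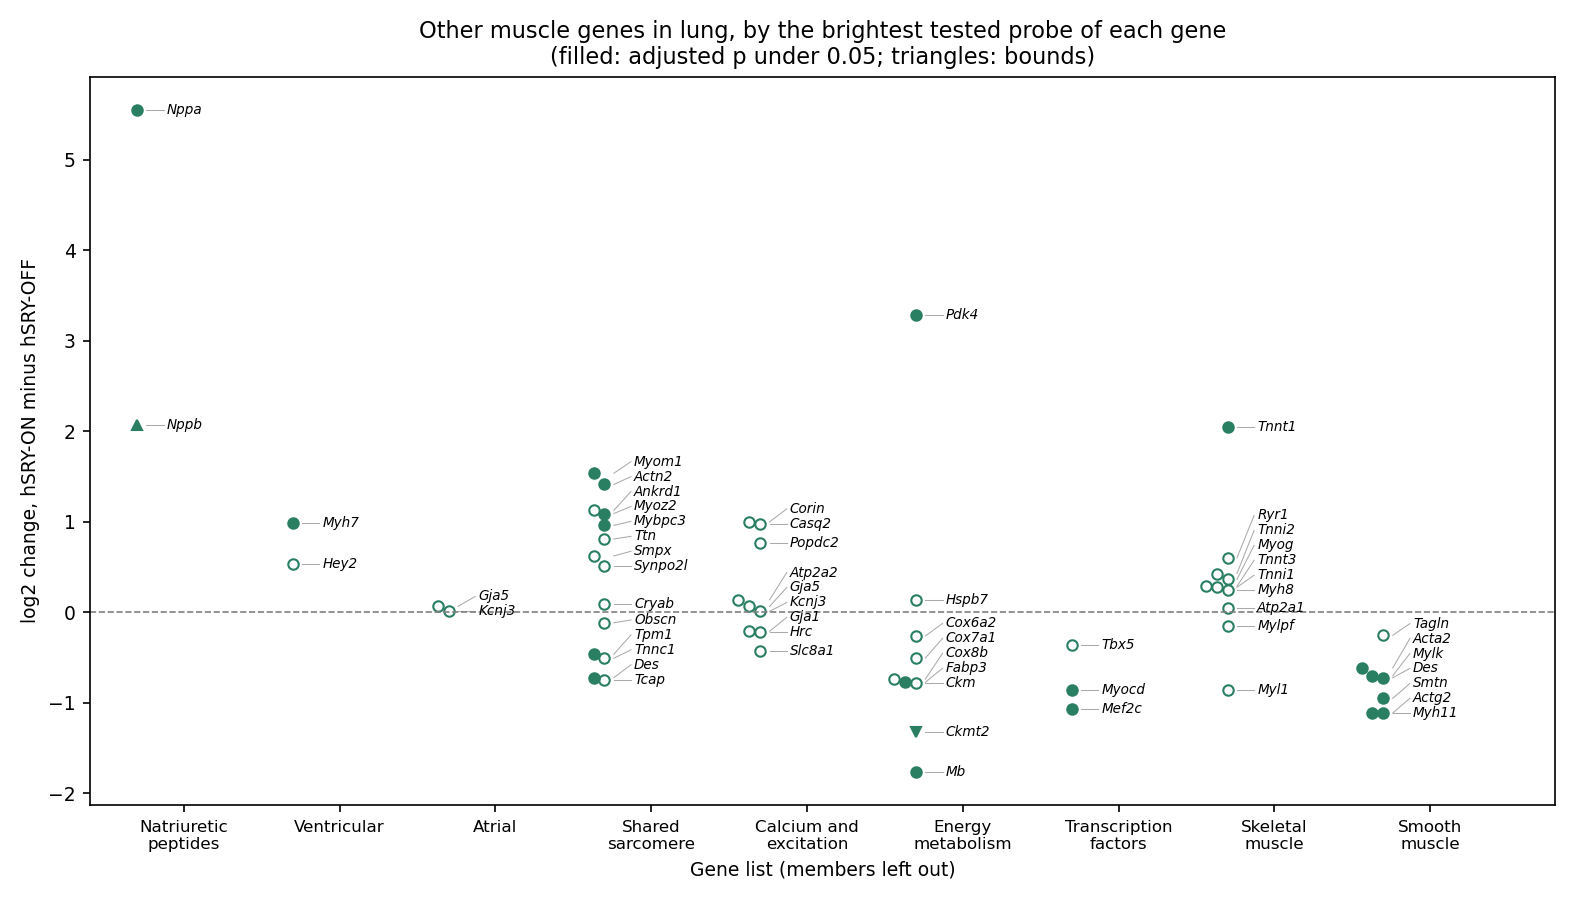
Log2 change, hSRY-ON minus hSRY-OFF (y axis), of the tested genes of the further cardiac, skeletal muscle and smooth muscle lists (x axis, 1 gene left out), by its brightest tested probe, filled where the adjusted p was under 0.05. Triangles are bounds, since Nppb was detected on no hSRY-OFF array and Ckmt2 on no hSRY-ON array. Nppa lies highest, at 5.55, and 6 of 7 smooth muscle genes are filled and below 0.

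Of 3 tested atrial genes other than the members, 1 was higher and 2 were not called, the gap junction gene Gja5 (0.06, adjusted p = 0.9) and the potassium channel gene Kcnj3 (0.01, adjusted p = 0.984). The higher one was Nppa, the atrial natriuretic peptide, which stood at 5.11, 5.33 and 6.94 in hSRY-OFF and at 12.32, 12.39 and 9.31 in hSRY-ON. All hSRY-ON arrays lay far above hSRY-OFF, with replicate 3 the lowest of them. Nppa rose by 5.55 (SE 0.88, 95% interval 3.47 to 7.63, adjusted p = 0.00611), or by 3.82 with no background correction. In hSRY-OFF it lay close to background and was not detected on replicate 1 (detection p-value 0.0827), so the size of this change depends on the background step. Nppb, the B-type natriuretic peptide, was detected on no hSRY-OFF array. In hSRY-ON it stood at 8.48, 7.14 and 6.45, at least 4.18-fold higher than in hSRY-OFF (adjusted p = 0.00856). Both peptides are made by atrial muscle and by strained ventricular muscle. Their highest array was not one and the same, being hSRY-ON replicate 2 for Nppa and replicate 1 for Nppb.

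Of 9 tested genes of cardiac energy supply, 1 was higher, 3 were lower and 5 were not called. Those lower were the oxygen store myoglobin, Mb (-1.77, adjusted p = 0.016), the fatty acid carrier Fabp3 (-0.78, adjusted p = 0.0163) and the mitochondrial creatine kinase Ckmt2. The brighter Ckmt2 probe was detected on all hSRY-OFF arrays and on no hSRY-ON array. It was at least 2.51-fold lower with this background step (adjusted p = 0.00145). This probe passed the filter only through its hSRY-OFF arrays, and with no filter its adjusted p was 0.00204. Its change was -2.10 in the main fit and -0.71 with no background correction. For the other Ckmt2 probe, ILMN_2817864, the bound was 1.91-fold. Without hSRY-OFF replicate 2 or hSRY-OFF replicate 3, Mb and Fabp3 lost their calls, with adjusted p from 0.0539 to 0.069. Pdk4, a kinase that shifts fuel use from glucose to fat in many tissues, was higher by 3.29 (adjusted p = 0.0048), with 6.67, 6.89 and 6.93 in hSRY-OFF and 10.31, 11.08 and 8.95 in hSRY-ON. The groups were far apart. Of 9 tested genes of calcium handling and excitation 0 were called by limma and 4 had an unadjusted p under 0.05. Their changes ran from -0.43 (the exchanger Slc8a1, adjusted p = 0.0564) to 1.0 (the natriuretic peptide protease Corin, adjusted p = 0.0967). Of 4 tested transcription factor genes, Mef2c (-1.07, adjusted p = 0.00733) and Myocd (-0.86, adjusted p = 0.00936) were lower. Myocd, a partner of serum response factor, also acts in smooth muscle, and Mef2c in endothelium. Several genes of the cardiac list were detected on no array, among them Nkx2-5, Tbx20, Hand2, Bmp10, Irx4, Pln, Ryr2 and Cacna1c. The same held for the endothelial gene Kdr and the lung epithelial gene Hopx. Such non-detection does not show that a transcript was absent.

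Markers of other tissues were measured beside the members. Of 20 skeletal muscle genes, 18 had a probe and 10 were tested, with 1 higher and 9 not called. The higher one was Tnnt1, the slow skeletal troponin T, which stood at 8.59, 8.73 and 8.53 in hSRY-OFF and at 10.84, 10.59 and 10.55 in hSRY-ON. It rose by 2.04 (SE 0.13, adjusted p = 0.000547), with both groups tight. Among the tested genes the lowest change was that of Myl1, -0.86 (adjusted p = 0.347). Acta1, the skeletal alpha actin, was not tested, being detected on 2 hSRY-OFF arrays and on no hSRY-ON array. It stood at 5.27, 5.23 and 7.08 in hSRY-OFF, and its mean hSRY-ON level was at least 1.37-fold lower. That bound rests on hSRY-OFF replicate 3 alone. Replicates 1 and 2 of hSRY-OFF lay below the lowest detected levels of the hSRY-ON arrays (5.356 to 5.456). The summed linear level of the 27 skeletal probes ran from 1373 to 1911 in hSRY-OFF and from 2601 to 2990 in hSRY-ON. Without Tnnt1 the sum of the other 26 ran from 949.1 to 1541 and from 1058 to 1263, so the groups overlapped. The sum of the 13 member probes ran from 10500 to 13900 in hSRY-OFF and from 5960 to 8774 in hSRY-ON. In such a sum bright probes weigh most, and Myl4, called lower, was the brightest member in hSRY-OFF (mean 12.45). The sum without Myl4 was not computed, so this sum does not show that the members were lower as a set. The fast myosins Myh1, Myh2 and Myh4 and the factor Myod1 were detected on no array. Myl2, Myl3 and Myh7 also belong to slow skeletal muscle, and the part of skeletal muscle RNA in their changes was not tested.

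Of 10 smooth muscle genes, 9 had a probe, 7 were tested and 6 were lower, among them the smooth muscle myosin Myh11 (-1.12, adjusted p = 0.00716) and smoothelin, Smtn (-0.95, adjusted p = 0.00298). Without hSRY-OFF replicate 1 or without hSRY-OFF replicate 2 the count lower was 3, since Acta2, Actg2 and Mylk lost their calls. Tagln had the smallest change, -0.26 (adjusted p = 0.164), and Cnn1 was detected on no array. The summed level of the list ran from 69900 to 73770 in hSRY-OFF and from 34020 to 48610 in hSRY-ON. Of 6 endothelial genes 5 were tested and 3 were lower, from Tie1 (-0.82, adjusted p = 0.00421) to the uncalled Tek (-0.38, adjusted p = 0.129), with sums of 34790 to 37650 and of 23350 to 25970, and Kdr was detected on no array. Of 10 thymocyte genes 5 were tested and 4 were lower, from Cd8b1 (-2.24, adjusted p = 0.00648) to the uncalled Ptcra (-0.26, adjusted p = 0.451), with sums of 1496 to 1686 and of 483.7 to 1074, and Cd4, Cd8a, Rag1, Rag2 and Dntt were detected on no array. Of 11 lung epithelial genes 10 were tested and 3 were higher, from the uncalled Nkx2-1 (-0.42, adjusted p = 0.409) to the cilium factor Foxj1 (1.15, adjusted p = 0.00647), with sums of 135900 to 141800 and of 149500 to 159000. Sftpc and Scgb1a1, which define alveolar type II and club cells, were above 13.9 on every array, as lung tissue would show. Of 8 adipocyte genes 1 was tested and higher, Cidea (1.16, adjusted p = 0.00532), while Ucp1 and Adipoq were each detected on no more than 1 array per group. Of 6 oesophageal genes 1 was tested and higher, Krt14 (2.07, adjusted p = 0.0163), while Krt4 and Krt5 were detected on no array. Krt13 was detected only on 2 hSRY-ON arrays and Lor only on 2 hSRY-OFF arrays, and neither was tested. The part of these tissues in the members' changes was not tested.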

How the data were processed

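Lung RNA of 3 hSRY-OFF and 3 hSRY-ON mice was hybridised to Illumina MouseRef-8 BeadChips. The authors deposited, per probe and array, an intensity on a linear scale, neither background-corrected nor normalized, and a detection p-value. The software that summarised the beads is not given in the sources used here. The submitters' processing notes name limma without a version. The study used TCC, a count method, while the deposited values are intensities and were fitted here with limma 3.58.1 (R 4.3.3). The background came from a normexp fit that uses the detection p-values, with an offset of 16. Quantile normalization and log2 followed, which removes any overall shift. The offset, and any background left in the signal, understate changes of dim probes. Nppa, dim in hSRY-OFF, changed by 5.55 here, by 4.84 with an offset of 50 and by 3.82 with no background correction. Probes with detection p under 0.05 on at least 3 of 6 arrays (13841, 53.9%) were fitted by lmFit and eBayes without covariates, with Benjamini-Hochberg adjustment over all of them and a threshold of 0.05. For a probe detected on no array of 1 group, the fold is a bound against the lowest detected level of each array. Pipeline steps were tested on simulated data. Alternatives were other background corrections, normalizations, filters, variance models, array weights, a replicate block, a threshold of 0.01 and leaving out each array.

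Members and gene lists were chosen with earlier results of these data known. Named were all members, the highest and lowest gene of each list, Nppa, Nppb and Myh7, and genes whose values bear on a member. Actn2, Myoz2, Mybpc3, Ttn, Tpm1, Des, Tnnc1, Mb, Fabp3, Mef2c, Smtn, Gja5, Sftpc and Scgb1a1 were named after their values were seen. A gene that the rule would name is not reported here. Per the methods of the study the arrays are of separate mice. Older symbols were matched through RefSeq synonyms (GRCm38.p6), and the table paired each probe with its symbol.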

Additional observations from a re-analysis of the deposited data

How the results depend on the processing

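The calls of Myl2, Myl3 and Myl4 held under all 15 refits, with changes from -2.86 to -1.70, 1.0 to 1.27 and -2.24 to -1.65. Of 177 recomputed member values, 145 kept direction and side of the threshold, 14 lost a call, 10 gained one and 8 changed sign. One member probe was called higher in every setting. The count called lower, 4, was 6 with no background correction, median scaling or array weights and 5 with variance trend and robust estimation. It was 2 with no filter, 2 with the replicate block, 2 at an adjusted p under 0.01 and 2 to 7 with an array left out. At an adjusted p under 0.01 the threshold itself is stricter. For the other settings the cause was not tested. Over the whole array 3728 probes differed, 1326 at an adjusted p under 0.01 and 1504 to 4384 with an array left out. Of the further cardiac genes, 5 were higher and 4 lower at an adjusted p under 0.01, and 5 to 11 were higher and 3 to 8 lower with an array left out. The sign changed, for Myh6 (-0.0014 with array weights, and -0.16 to 0.37 with an array left out), Actc1 (-0.28 to 0.75 and -0.22 to 0.61 with an array left out, below 0 only without hSRY-ON replicate 1), Tnni3 (-0.38 to 0.11), Csrp3 ILMN_2789651 (-0.61 to 0.0070) and Kcnj3 (-0.14 to 0.16). Myl7 was called lower with no background correction, median scaling and array weights. Arrays with the same replicate number did not deviate together (correlations -0.107, 0.096 and -0.093). This gave no sign that the numbers pair the arrays, but with 3 arrays per group it cannot exclude a pairing. With the replicate block, 2655 probes differed, and Sln (adjusted p = 0.074), Csrp3 (adjusted p = 0.0797), Tpm1 (adjusted p = 0.0607), Myoz2 (adjusted p = 0.0702) and Acta2 (adjusted p = 0.0725) lost their calls. Dim probes such as those of Actc1 and Tnni3 lie near the detection floor, which limits what their values can show.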
